A study of Rattus norvegicus with 6 samples.

Results

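The genes described here are 35 lysosomal genes of the rat: acid hydrolases, cathepsins, membrane proteins and proton pump subunits of the lysosome. They were a fixed list of names, chosen with earlier results of these data known. They were matched by gene name to the 33713 genes of the deposited tables. All 35 were found, and all 35 passed the filter on low counts. Their levels were compared between injured sciatic nerve with and without electrical stimulation, written ES. Total RNA had been sequenced from 6 samples of nerve, collected on day 4 from 8 weeks old female Sprague-Dawley rats. Every nerve had retracted to a gap of about 6 mm, and its ends had been sewn 2 mm deep into a silicone tube of 10 mm. The 3 ES samples had been stimulated for 1 h at once, and the 3 control samples had the same injury and tube without stimulation. No label ties the samples of a group to separate animals, so the p-values measure sample-to-sample spread only, and that spread may be technical.

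Lysosomes are acidic organelles in which proteins, glycans, lipids and nucleic acids taken up or recycled by a cell are broken down. A proton pump of many subunits acidifies the lumen, hydrolases with an acid optimum do the cutting, and heavily glycosylated membrane proteins shield the wall and carry products out. In a cut peripheral nerve, Schwann cells and incoming macrophages clear the debris of degenerating myelin and axons, and both depend on lysosomes for it.

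Many lysosomal genes carry E-box letters near their start that the transcription factor TFEB and its relatives are known to read, a motif described in human cells under the name CLEAR. The promoter of a gene is taken here as the 300 bases from 250 before to 50 after its annotated start, from RefSeq on the build GRCr8. It was at hand for 28 of the 35 genes. Arsb, Asah1, Atp6v0d2, Atp6v1h, Ctsb, Hexa and Psap had no entry in the table used. The letters searched, on both strands, were CACGTG, the longer TCACGTGA that contains it, and the full palindrome, which is TCACGTGA with G before it and C after it. CACGTG stood in 7 of the 28 promoters (25.0%), those of Atp6v0d1, Cd63, Ctsd, Ctsf, Gaa, Glb1 and Lamp1, against 6.42% of 33469 promoters of the same length. TCACGTGA stood in 3 of the 28 (10.7%), those of Atp6v0d1, Ctsd and Lamp1, against 0.777% of all. The full palindrome was in 0 of the 28 and in 0.233% of all. Of 78 promoters of the further lysosomal genes described below, 21.8% held CACGTG, 10.3% TCACGTGA and 5.13% the full palindrome. GAGGAAGT, letters of the kind read by the myeloid factor PU.1, stood in the promoters of Ctsc, Ctss and Gla (10.7%, against 2.42% of all and 1.28% of the 78). A match is a description of letters and not a site, and a missing match says only that the letters are not in this window.

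Promoters of 4 genes are shown because they differ in these letters and because their genes stood at different places in the comparison that follows. Lamp1 held most E-box letters, with 5 matches of CACGTG. Ctsd held 2, Ctss the PU.1 letters, and Neu1, the gene with the largest difference, none of them. Capitals mark TCACGTGA where it occurs and otherwise CACGTG in Lamp1 and Ctsd. In Ctss they mark ACTTCCTC, the other strand of GAGGAAGT, whose first base lies 17 bases before the start. The positions on GRCr8 are chr16:83075014-83075313 (minus strand) for Lamp1, chr1:206968772-206969071 (minus) for Ctsd, chr2:185775146-185775445 (plus) for Ctss and chr20:3906334-3906633 (minus) for Neu1. Each sequence reads 5′ to 3′ on the strand of its gene.
Lamp1: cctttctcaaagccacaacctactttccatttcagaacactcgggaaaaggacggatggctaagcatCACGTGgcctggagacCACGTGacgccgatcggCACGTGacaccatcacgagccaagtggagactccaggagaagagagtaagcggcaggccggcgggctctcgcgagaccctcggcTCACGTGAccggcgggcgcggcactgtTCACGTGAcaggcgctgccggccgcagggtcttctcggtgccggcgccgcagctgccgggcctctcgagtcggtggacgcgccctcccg
Ctsd: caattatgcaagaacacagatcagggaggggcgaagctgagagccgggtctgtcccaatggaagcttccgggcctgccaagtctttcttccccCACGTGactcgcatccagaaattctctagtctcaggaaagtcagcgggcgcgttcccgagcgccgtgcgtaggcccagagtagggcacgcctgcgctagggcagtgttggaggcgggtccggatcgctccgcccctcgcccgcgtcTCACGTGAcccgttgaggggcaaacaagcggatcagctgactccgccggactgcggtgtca
Ctss: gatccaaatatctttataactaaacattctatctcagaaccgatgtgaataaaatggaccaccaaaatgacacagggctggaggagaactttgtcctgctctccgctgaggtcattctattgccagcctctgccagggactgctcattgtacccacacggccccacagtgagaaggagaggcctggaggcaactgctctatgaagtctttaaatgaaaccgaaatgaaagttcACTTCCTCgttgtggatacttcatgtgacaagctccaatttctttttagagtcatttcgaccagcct
Neu1: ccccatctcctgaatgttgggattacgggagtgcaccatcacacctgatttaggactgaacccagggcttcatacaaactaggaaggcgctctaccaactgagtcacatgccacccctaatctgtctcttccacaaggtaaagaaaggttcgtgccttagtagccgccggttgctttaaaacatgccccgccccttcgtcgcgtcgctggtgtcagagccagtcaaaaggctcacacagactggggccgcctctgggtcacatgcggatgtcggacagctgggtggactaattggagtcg

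Levels between genes were compared as FPKM, which is scaled by gene length. Psap, the precursor of the saposins that help hydrolases reach sphingolipids, was the highest of the 35, with a mean of 1988 FPKM over the 6 libraries and a range of 1768 to 2212. The protease gene Ctsb followed at 1289 FPKM, the tetraspanin gene Cd63 at 1190 and the protease gene Ctsd at 796. Npc2, Lamp1 and Ctsa lay at 423, 392 and 371 FPKM. At the lower end stood the glycosidase gene Gla at 19.2, Neu1 at 11.4 and the pump gene Atp6v0d2 at 4.41. Psap was above 99.9% of all tested genes in level, Neu1 above 56.0% and Atp6v0d2 above 32.2%. Between neighbours in this order, 27 of 34 pairs overlapped in their ranges over the 6 libraries. The 7 pairs that did not were Psap and Ctsb, Ctsd and Npc2, Ctsa and Grn, Tpp1 and Atp6v0d1, Gaa and Glb1, Gla and Neu1, and Neu1 and Atp6v0d2.

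**Figure D1:**
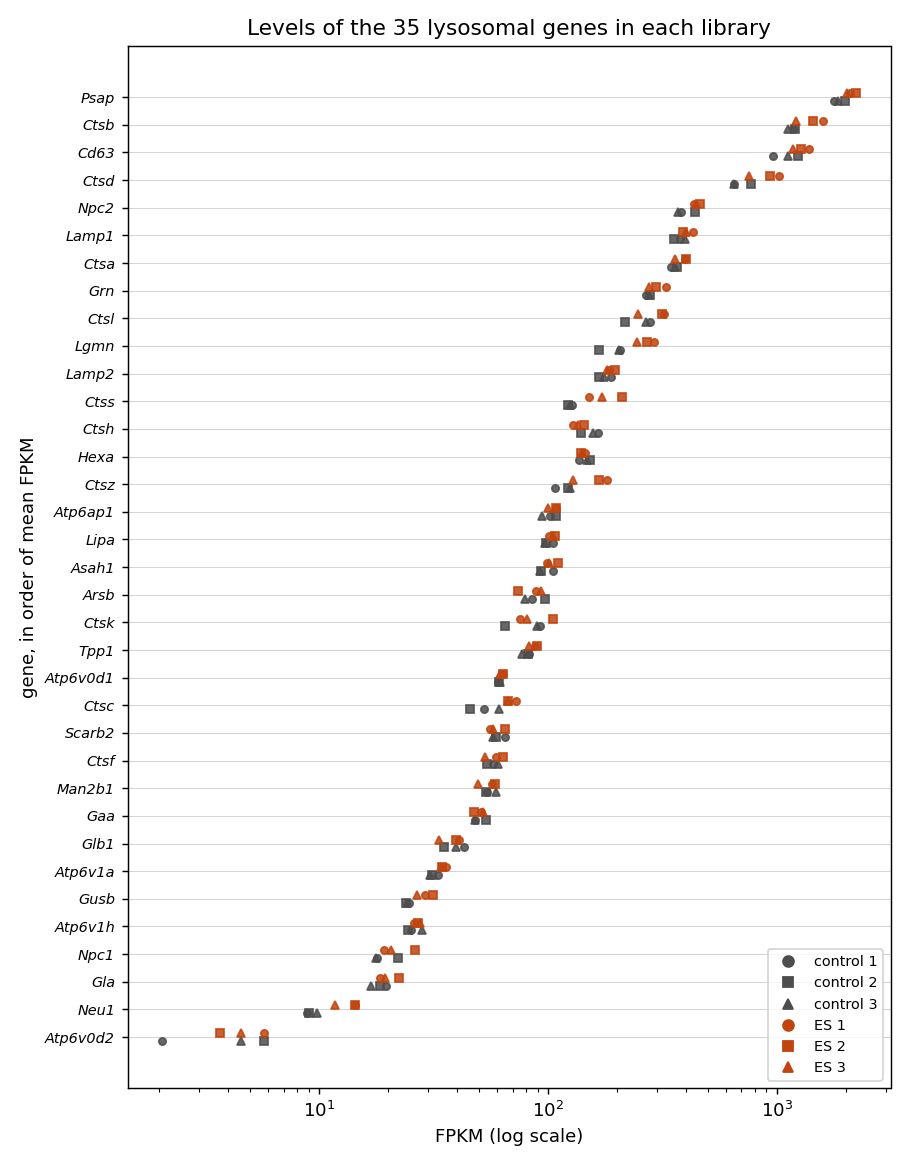
FPKM on a log scale of each of the 35 genes (one line per gene, in order of the mean) in the 3 control libraries (grey) and 3 ES libraries (orange), with symbols for the replicate number. The levels run from a mean of 1988 FPKM for Psap to 4.41 for Atp6v0d2, and for most genes the libraries lie closer to each other than genes at the ends of the order.

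The 35 genes together took 1.76%, 1.85% and 1.78% of all counts in control 1, 2 and 3, and 2.13%, 2.04% and 1.93% in ES 1, 2 and 3. Their share was therefore higher in each ES library than in any control library. Psap alone made up 25.3% to 27.6% of these counts in a library, and Psap, Ctsb, Ctsd and Lamp1 together made up 55.2% to 57.6%. In bulk tissue, fewer cells of a type and less RNA per cell cannot be told apart, and the same holds for more.

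Log2 fold changes are of ES against control and are given with their standard error (SE) after the sign ±. Of the 14828 genes tested across the table by the quasi-likelihood method of edgeR, 25 were called, with a p under 0.05 after Benjamini-Hochberg adjustment, 5 higher in ES (0.0337%) and 20 lower (0.135%). None of the 35 lysosomal genes was among them, 0 higher and 0 lower. The lowest adjusted p among them was 0.101, for Neu1. At an unadjusted edgeR p under 0.05, 8 of the 35 were higher in ES, Neu1, Lgmn, Ctss, Ctsc, Ctsz, Gusb, Ctsd and Ctsb, against 4.01% of all tested genes. By the same measure 1 was lower, Ctsh, against 5.94% of all. In 9 of the 35 every ES library lay above every control library, against 7.54% of all tested genes, and in 0 every ES library lay below, against 8.23%. The log2 fold change was above 0 in 28 of the 35, against 50.7% of all, and its median was 0.11, against 0.0025 over all tested genes. DESeq2, the alternative count test, called 6 of the 35 higher, against 0.627% of the genes it tested, and 0 lower, against 1.45%. These 6 were Lgmn (DESeq2 adjusted p = 0.000579), Ctss (0.00192), Neu1 (0.00934), Ctsz (0.0252), Ctsd (0.0423) and Ctsc (0.0484). With edgeR and no filter on low counts, Lgmn, Ctss and Neu1 were called (adjusted p = 0.0172, 0.029 and 0.0249), and limma-voom called 0. The 35 were chosen with earlier results of these data known, so the counts set against all genes are no independent test.

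**Figure D2:**
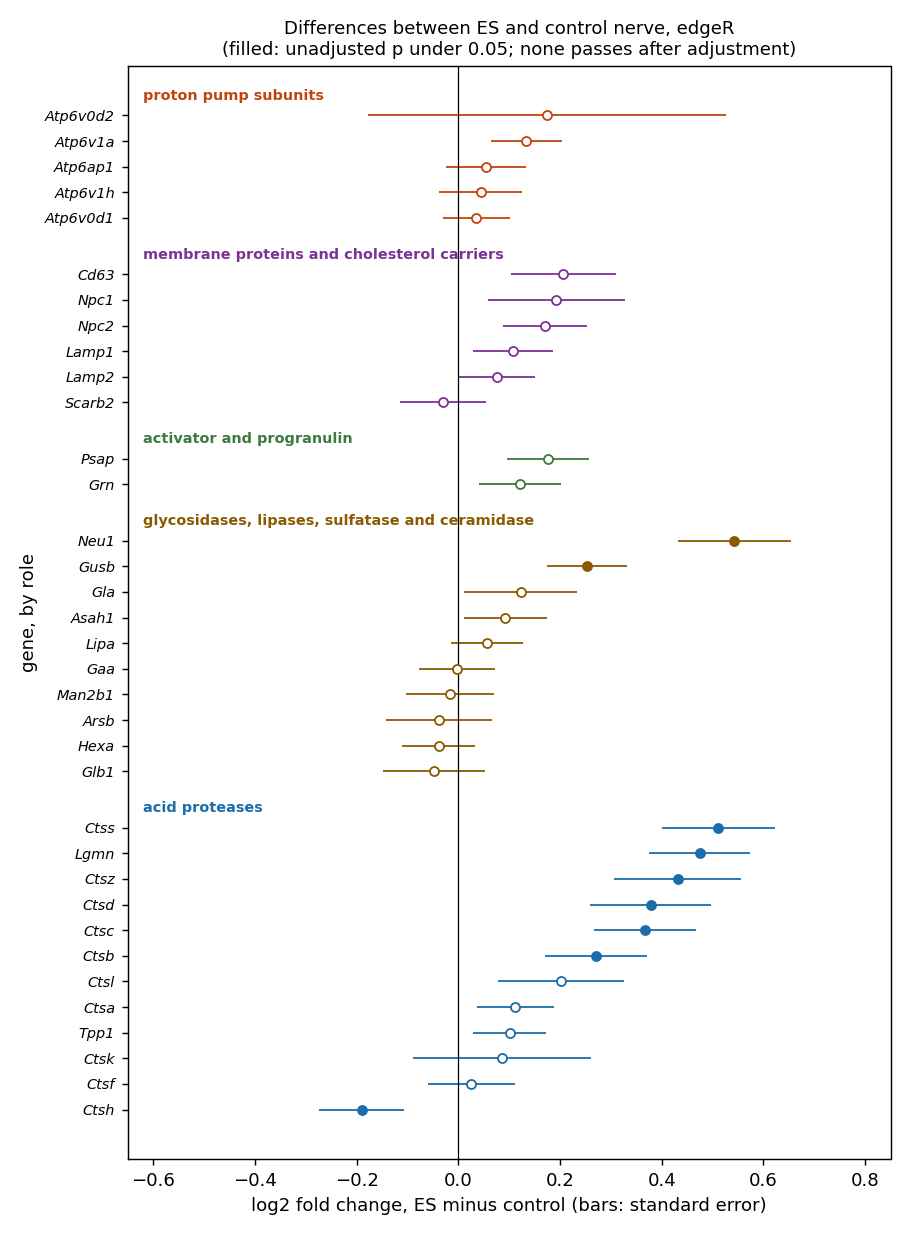
Log2 fold change (ES minus control, edgeR) with its standard error for the 35 genes, grouped by role, where filled points have an unadjusted p under 0.05 and none passes after adjustment. Acid proteases spread to the right of 0 except Ctsh at −0.19, while Neu1 has the largest value, 0.54.

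Of the 9 genes with an unadjusted edgeR p under 0.05, 7 were acid proteases. Of the 12 acid protease genes, 11 had a log2 fold change above 0, with a median of 0.24. At an unadjusted edgeR p under 0.05, 6 were higher and 1 was lower, against 4.01% and 5.94% of all tested genes. In 5 every ES library lay above every control library (7.54% of all), and DESeq2 called 5 higher (0.627% of all). Their summed level was 6368, 6444 and 6312 CPM (counts scaled to a library size of 1e+06, with the TMM factor) in the control libraries and 8353, 7946 and 6719 CPM in ES 1, 2 and 3. The sum was thus lowest, among ES libraries, in ES 3, and it still exceeded every control library.

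Ctss (ENSRNOG00000021157, chromosome 2, 197655786 to 197679458, plus strand in the deposited tables) encodes cathepsin S, a cysteine protease that stays active at neutral pH and trims the invariant chain of MHC class II in antigen-presenting cells. Its level was 127, 121 and 124 CPM in control and 149, 209 and 171 CPM in ES. The groups did not overlap, and ES 2 was the highest library. The means were 124 ± 2.90 and 176 ± 30.2 CPM (SD, n = 3 each). This gave a log2 fold change of 0.51 ± 0.11, and the adjusted p by edgeR was 0.129. Without ES 1, ES 2 and ES 3 in turn the log2 fold change was 0.62 ± 0.10, 0.38 ± 0.09 and 0.53 ± 0.13 (edgeR adjusted p = 0.0698, 0.148 and 0.219). Over the alternatives the adjusted p ran from 0.00192 (DESeq2) to 0.402 (edgeR without control 3).

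Lgmn (ENSRNOG00000007089, chromosome 6, 126282233 to 126320726, minus strand) encodes legumain, the asparaginyl endopeptidase, which also processes other cathepsins. It stood at 411, 334 and 409 CPM in control and at 576, 539 and 488 CPM in ES. Every ES library was above every control library, with the lowest control value in control 2. Its log2 fold change was 0.47 ± 0.10, and the adjusted p by edgeR was 0.105, with a range of 0.000579 to 0.33 over the alternatives.

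Ctsz (ENSRNOG00000050697, chromosome 3, 172527107 to 172537877, minus strand), a carboxypeptidase of myeloid cells among others, stood at 146, 166 and 170 CPM in control and 247, 226 and 175 CPM in ES. ES 3 lay just above the highest control library, and the other 2 ES libraries well above it. Its log2 fold change was 0.43 ± 0.12 (edgeR adjusted p = 0.257). Without ES 1, ES 2 and ES 3 in turn it was 0.33 ± 0.12, 0.40 ± 0.14 and 0.56 ± 0.10 (edgeR adjusted p = 0.538, 0.396 and 0.059). Ctsd (ENSRNOG00000020206, chromosome 1, 215541542 to 215553451, minus strand) encodes cathepsin D, the main aspartic protease of lysosomes. It stood at 1320, 1566 and 1325 CPM in control and 2068, 1885 and 1522 CPM in ES. The groups overlapped, because ES 3 lay below control 2. The log2 fold change was 0.38 ± 0.12 (edgeR adjusted p = 0.292), and it was 0.28, 0.36 and 0.49 without ES 1, ES 2 and ES 3 in turn.

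Ctsc (ENSRNOG00000016496, chromosome 1, 151918571 to 151949983, plus strand) encodes dipeptidyl peptidase I, which activates granule serine proteases of immune cells. Its values were 99.0, 86.2 and 115 CPM in control and 136, 126 and 126 CPM in ES. The groups did not overlap, and the spread was wider in control than in ES. For Ctsc the log2 fold change was 0.37 ± 0.10 (edgeR adjusted p = 0.221). Ctsb (ENSRNOG00000010331, chromosome 15, 46316741 to 46337612, plus strand) encodes cathepsin B, a cysteine protease that cuts within chains and from their end. Its level was 2287, 2343 and 2197 CPM in control and 3086, 2793 and 2360 CPM in ES. ES 3 was only a little above control 2, the highest control library. For Ctsb it was 0.27 ± 0.10 (edgeR adjusted p = 0.377), and 0.18 ± 0.10 without ES 1.

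Ctsh (ENSRNOG00000014064, chromosome 8, 97439161 to 97458287, plus strand) encodes cathepsin H, a cysteine protease acting mainly as an aminopeptidase, and it pointed the other way. It stood at 292, 246 and 278 CPM in control and 227, 252 and 237 CPM in ES. The groups overlapped through control 2 and ES 2. The log2 fold change was −0.19 ± 0.08 (edgeR adjusted p = 0.49).

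Among the remaining proteases, Ctsa encodes a serine carboxypeptidase that shields Neu1 and beta-galactosidase in a complex. It stood at 782, 828 and 819 CPM in control and 904, 910 and 812 CPM in ES, so ES 3 lay among the control libraries. Its log2 fold change was 0.11 ± 0.08 (edgeR adjusted p = 0.674). The gene Pltp overlaps it on the other strand in the deposited tables, with 35670 counts over the 6 libraries against 80910 for Ctsa, and how strand was counted is not given. Ctsl, a cysteine protease that cuts within chains, had a log2 fold change of 0.20 ± 0.12 (0.10 without control 2, 0.31 without ES 3), and ES 3 at 408 CPM lay below control 1 at 460 and control 3 at 443 CPM. Tpp1, a serine protease that removes tripeptides, was at 0.10 ± 0.07, and Ctsf, another cysteine protease, at 0.03 ± 0.08. Ctsk, the collagen-cutting protease of osteoclasts that fibroblasts and macrophages can also make, was at 0.09 ± 0.18, with 92.1 CPM in control 2 and 150 CPM in ES 2 as its ends, and its log2 fold change was −0.07 without ES 2. Of 7 osteoclast or giant cell markers, 4 were tested and 0 were called by edgeR or DESeq2. Log2 fold changes of the 4 were above 0 in 2 and below 0 in 2, from −0.05 to 1.31 (median 0.35). The summed level of the 7 was 76.0, 65.9 and 83.3 CPM in control and 79.8, 119 and 78.2 CPM in ES 1, 2 and 3. Only ES 2 lay above the control libraries. Dcstamp had 0 counts in all 6 libraries and Calcr 0 in the control libraries. The part of these markers in the values of Ctsk was not tested. Adjusted p by edgeR of Ctsl, Tpp1, Ctsf and Ctsk lay between 0.64 and 0.951.

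**Figure D3:**
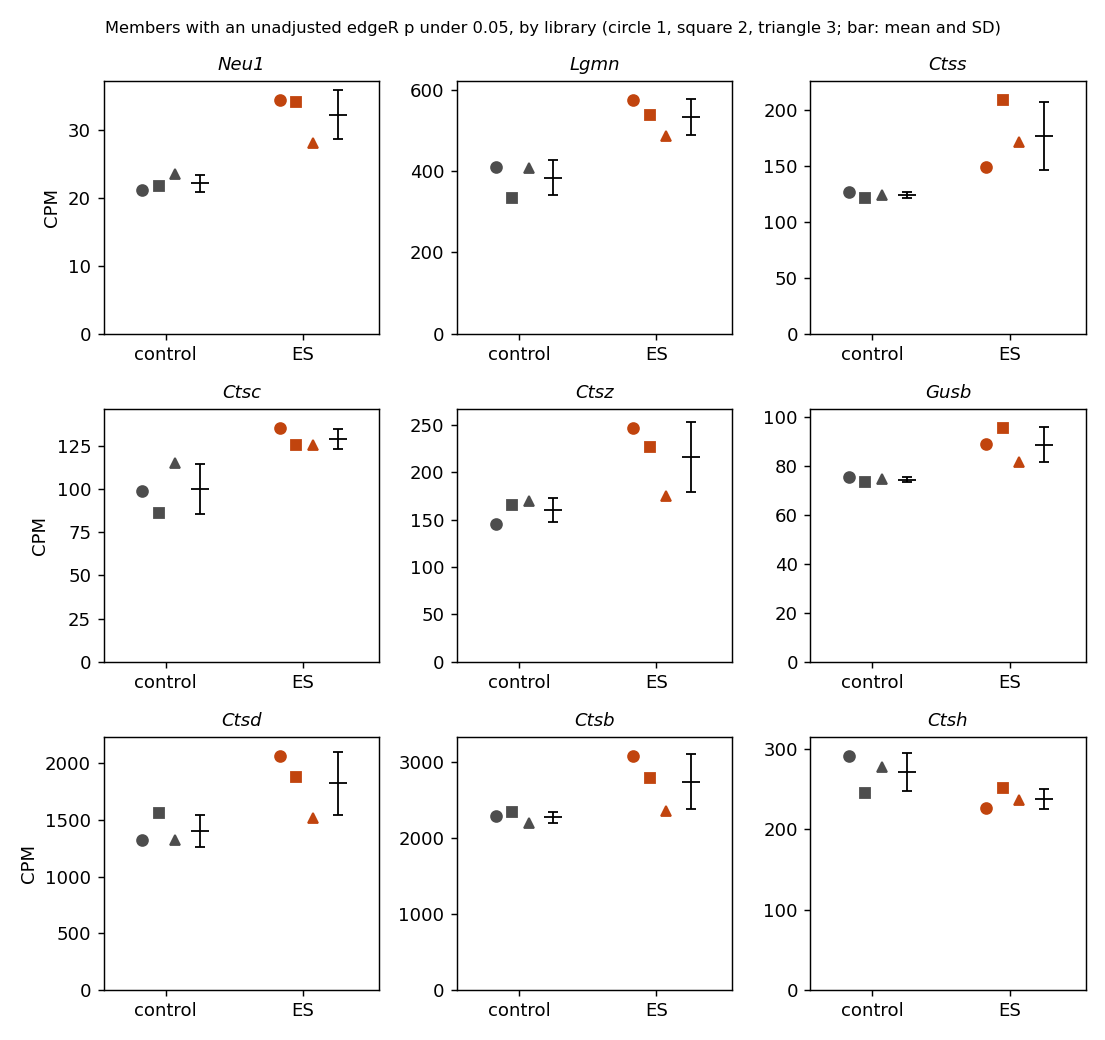
CPM in each control library (grey) and ES library (orange) of the 9 lysosomal genes with an unadjusted edgeR p under 0.05, with the mean and SD beside the points and axes that start at 0. In Neu1, Lgmn, Ctss, Ctsc, Ctsz, Gusb and Ctsb all ES points lie above all control points, whereas in Ctsd and Ctsh the groups overlap.

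Hydrolases of sugars, lipids and sulfate esters were represented by 10 genes. Their log2 fold changes were above 0 in 5 and below 0 in 5, with a median of 0.03. Their summed level was 1782, 1791 and 1728 CPM in control and 1816, 1801 and 1791 CPM in ES. The control and ES sums therefore met at control 2 and ES 3, at 1791 CPM each. Neu1 and Gusb had an unadjusted edgeR p under 0.05 and were higher in ES (4.01% of all tested genes). Both were free of overlap (7.54% of all).

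Neu1 (ENSRNOG00000032942, chromosome 20, 4610995 to 4615247, plus strand) encodes the lysosomal sialidase, which removes terminal sialic acid from glycoproteins and glycolipids. The plus strand is that of the deposited tables, whereas on GRCr8 Neu1 lies on the minus strand, as printed above. Its level was 21.1, 21.7 and 23.5 CPM in control and 34.4, 34.1 and 28.0 CPM in ES. ES 1 and ES 2 were nearly equal, and ES 3 lay between them and the control libraries. The means were 22.1 ± 1.24 and 32.2 ± 3.61 CPM (SD, n = 3 each). Neu1 had the largest log2 fold change of the 35, 0.54 ± 0.11, and the adjusted p by edgeR was 0.101, with a range of 0.00934 to 0.316 over the alternatives. Without ES 3 it was 0.63 ± 0.11 (adjusted p = 0.059). Its partners in the sialidase complex had smaller values, 0.11 ± 0.08 for Ctsa and −0.05 ± 0.10 for Glb1, and the differences between these genes were not tested.

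Gusb (ENSRNOG00000000913, chromosome 12, 30198822 to 30227771, plus strand) encodes beta-glucuronidase, which takes part in the breakdown of glycosaminoglycans. It stood at 75.4, 73.4 and 74.6 CPM in control and 89.0, 95.7 and 81.5 CPM in ES. The control libraries lay close together, and every ES library exceeded them. For Gusb the log2 fold change was 0.25 ± 0.08 (edgeR adjusted p = 0.273). DESeq2 did not call it (adjusted p = 0.215).

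The other 8 hydrolases had log2 fold changes between −0.05 and 0.12 and overlapped between the groups. Those above 0 were Gla, the galactosidase that trims globosides (0.12 ± 0.11), Asah1, the acid ceramidase (0.09 ± 0.08), and Lipa, the acid lipase that frees cholesterol from its esters (0.06 ± 0.07). Those below 0 were Glb1, the beta-galactosidase (−0.05 ± 0.10), Hexa, a subunit of beta-hexosaminidase (−0.04 ± 0.07), Arsb, a sulfatase of dermatan sulfate (−0.04 ± 0.10), Man2b1, the alpha-mannosidase (−0.02 ± 0.09), and Gaa, which breaks down glycogen (−0.00247 ± 0.0757). Their edgeR adjusted p ran from 0.763 to 0.996. In Asah1 the gene Pcm1 overlaps on the other strand, with 11535 counts against 25168.

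Psap and Grn encode precursors that are cut into smaller active proteins. Psap stood at 4559, 5097 and 4767 CPM in control and 5394, 5691 and 5219 CPM in ES. No ES library fell among the control libraries. For Psap the log2 fold change was 0.18 ± 0.08 (edgeR adjusted p = 0.506). Grn, which encodes progranulin, a partner of prosaposin on its way to the lysosome, stood at 630, 651 and 649 CPM in control and 764, 690 and 646 CPM in ES. ES 3 lay within the control range. For Grn it was 0.12 ± 0.08 (edgeR adjusted p = 0.665), and 0.06 ± 0.09 without ES 1.

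The 6 membrane proteins and cholesterol carriers had 5 log2 fold changes above 0 and a median of 0.14, with 0 at an unadjusted edgeR p under 0.05 and 0 free of overlap. Their summed level was 3649, 3913 and 3860 CPM in control and 4383, 4209 and 4033 CPM in ES. Cd63, a tetraspanin of late endosomes and exosomes, stood at 1083, 1384 and 1259 CPM in control and 1559, 1428 and 1312 CPM in ES. ES 3 lay below control 2, and the log2 fold change was 0.21 ± 0.10 (edgeR adjusted p = 0.539), or 0.12 without control 1. Npc2, the soluble protein that takes cholesterol to Npc1 for export, stood at 481, 553 and 469 CPM in control and 549, 583 and 559 CPM in ES, and ES 1 lay just below control 2. Its log2 fold change was 0.17 ± 0.08 (edgeR adjusted p = 0.53). Lamp1, a main glycoprotein of the lysosomal wall, stood at 1520, 1436 and 1602 CPM in control and 1730, 1572 and 1611 CPM in ES. ES 2 lay below control 3, and the log2 fold change was 0.11 ± 0.08 (edgeR adjusted p = 0.702), or 0.07 without control 2 or ES 1. Npc1 (0.19 ± 0.14) was highest in ES 2 and next highest in control 2, and its log2 fold change was 0.05 without ES 2 and 0.30 without control 2. The gene Rmc1 overlaps Npc1 on the other strand, with 2458 counts against 10654. Lamp2, the receptor of chaperone-mediated autophagy (0.08 ± 0.08), and Scarb2, which carries glucocerebrosidase to lysosomes (−0.03 ± 0.08), lay nearer to 0.

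Of the proton pump, 5 genes were among the 35. All 5 had log2 fold changes above 0, with a median of 0.06, and their summed level was 570, 578 and 556 CPM in control and 608, 603 and 578 CPM in ES. Atp6v1a, the catalytic subunit that binds ATP, stood at 142, 132 and 130 CPM in control and 152, 147 and 145 CPM in ES. The groups did not overlap, and the log2 fold change was 0.13 ± 0.07 (edgeR adjusted p = 0.558). Atp6v0d1, the d subunit made in most tissues, stood at 148, 148 and 152 CPM in control and 155, 154 and 150 CPM in ES. It was among the steadiest of the 35, with a coefficient of variation of 1.47% in control and 1.80% in ES, and its log2 fold change was 0.04 ± 0.07 (edgeR adjusted p = 0.902).

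Atp6v0d2, the d subunit known in the mouse from osteoclasts and some macrophages, was the weakest gene. It had 47, 123 and 100 counts in control and 136, 86 and 97 counts in ES, which gives 2.90, 8.06 and 6.42 CPM in control and 8.06, 5.15 and 6.37 CPM in ES. The groups overlapped fully and control 1 was far below the rest. The log2 fold change was 0.17 ± 0.35 (edgeR adjusted p = 0.911), and it turned to −0.14 without control 1 and to −0.0026 without ES 1. Atp6ap1, an accessory protein of the pump (0.06 ± 0.08), and Atp6v1h, a regulatory subunit (0.04 ± 0.08), overlapped between the groups.

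**Figure D4:**
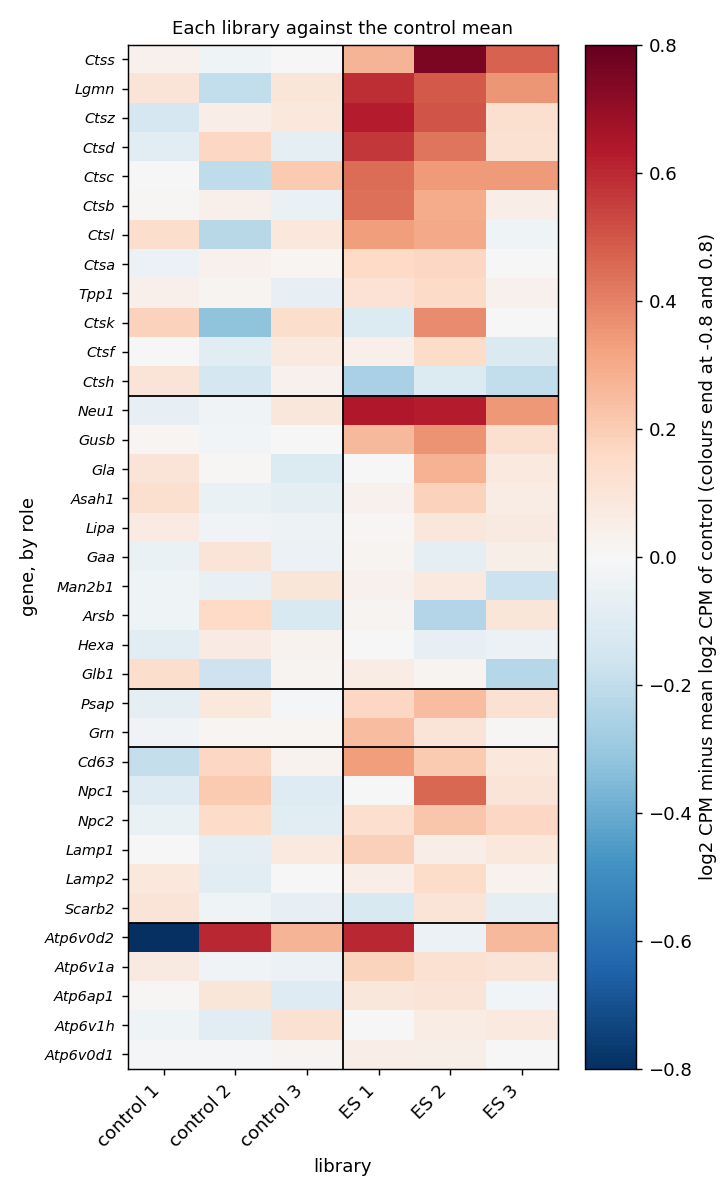
Log2 CPM of each of the 35 genes in each library minus the mean log2 CPM of the 3 control libraries, grouped by role, with red above and blue below the control mean and the colours ending at the limits of the scale (Atp6v0d2 in control 1 lies beyond them). For Ctsb, Ctsd, Ctsz, Lgmn and Neu1, red is deeper in ES 1 and ES 2 and paler in ES 3. Other acid proteases differ from this: Ctss is palest in ES 1 among the ES libraries, Ctsk is blue in ES 1, and Ctsh is blue in every ES library.

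The ES libraries were not alike. Of the 35 genes, 15 had their highest value of all 6 libraries in ES 2, 12 in ES 1 and 0 in ES 3, and the other 8 had it in a control library. ES 3 was the lowest of the ES libraries for 20 of the 35. Of the 12 acid proteases, 6 were highest in ES 1 (Lgmn, Ctsz, Ctsd, Ctsc, Ctsb and Ctsl) and 5 in ES 2 (Ctss, Ctsa, Tpp1, Ctsk and Ctsf). The median coefficient of variation of the 35 genes was 6.21% in control and 8.29% in ES, against 10.3% and 9.71% over all tested genes. Without any one ES library, Ctsc, Ctsd, Ctss, Ctsz, Gusb, Lgmn and Neu1 kept an unadjusted edgeR p under 0.05 and a higher mean in ES. Over all 6 omissions of a library, 7 to 12 of the 35 were higher by that measure, and 0 were called after adjustment in each of the 6 fits.

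Markers of several cell types also differed between the libraries, and their part in the lysosomal values was not tested. These lists, too, were chosen with earlier results of these data known. Of 19 macrophage markers, 17 were matched and tested. All 17 had a log2 fold change above 0 (median 0.39), against 50.7% of all tested genes. At an unadjusted edgeR p under 0.05, 6 were higher (4.01% of all), and 0 were called by edgeR. DESeq2 called 5 of the 17 higher (0.627% of all), Tyrobp, Fcer1g, Spi1, Trem2 and Msr1. Their summed level was 1502 to 1721 CPM in control and 1789 to 2387 CPM in ES, highest in ES 2. In ES 1, where Ctsd, Ctsb, Ctsz and Lgmn were highest, the sum was 1789 CPM, against 1721 CPM in control 3. Single markers differed from the sum. Of the 17, 12 were highest in ES 2, 3 in ES 1 and 2 in ES 3, and 3 had their lowest value of all 6 libraries in ES 1. Tyrobp, 1 of the 3 highest in ES 1, stood at 74.9 to 86.4 CPM in control and at 122, 118 and 95.2 CPM in ES 1, 2 and 3. Fcer1g stood at 89.8 to 93.5 CPM in control and 123, 124 and 114 CPM in ES. The summed level of 8 Schwann cell markers was 9280 to 11950 CPM in control and 11760 to 12620 CPM in ES. Adipocyte markers lay at 891 to 1335 CPM in control and 148 to 570 CPM in ES. Endothelial markers lay at 611 to 690 CPM and smooth muscle markers at 871 to 1169 CPM in control, against 463 to 505 and 581 to 734 CPM in ES. Fibroblast markers lay at 22040 to 29420 CPM in control and 19310 to 21640 CPM in ES. DESeq2 called 3 of the 8 Schwann cell markers higher (0.627% of all). Lower by DESeq2 were 4 of 6 endothelial, 4 of 6 smooth muscle, 2 of 8 adipocyte and 2 of 7 fibroblast markers tested (1.45% of all). EdgeR called 1 endothelial and 1 smooth muscle marker lower (0.135% of all). ES 2 stood apart in erythrocyte markers, at 1981 CPM against 113 to 253 CPM in the other 5 libraries. It also stood apart in the sum of neutrophil markers, at 164 CPM against 13.8 to 22.2 CPM. Of 8 neutrophil markers, 4 were tested, with 3 log2 fold changes above 0 and 1 below, at −3.87. In that 1 every ES library lay below every control library (8.23% of all), and in 2 above (7.54% of all). DESeq2 called 1 lower (1.45% of all) and 0 higher (0.627% of all). Without ES 2 the 7 genes named above still had an unadjusted p under 0.05, and the median of the 35 was 0.08.

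**Figure D5:**
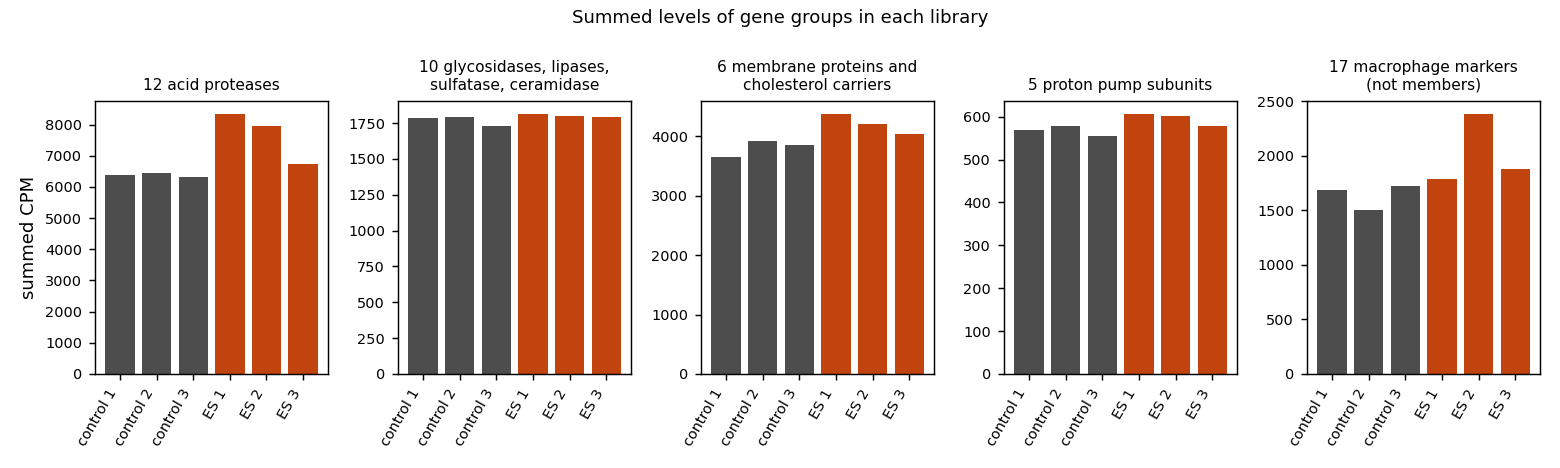
Summed CPM in each library (control grey, ES orange, axes from 0) of the 12 acid proteases, the 10 glycosidases, lipases, sulfatase and ceramidase, the 6 membrane proteins and cholesterol carriers, the 5 pump subunits and 17 macrophage markers. The protease sum is highest in ES 1 (8353 CPM) and the macrophage sum in ES 2 (2387 CPM), while the glycosidase sum stays between 1728 and 1816 CPM.

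A further 104 lysosomal genes were listed beside the 35, also with earlier results of these data known, and 96 of them were tested. EdgeR called 0 of them after adjustment. At an unadjusted edgeR p under 0.05, 15 were higher in ES (4.01% of all genes) and 0 lower (5.94% of all). DESeq2 called 7 higher (0.627% of all) and 0 lower (1.45% of all). In 17 every ES library lay above every control library (7.54% of all) and in 1 below (8.23% of all), and the median log2 fold change was 0.09.

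Among other membrane proteins, 5 of 24 were higher at an unadjusted edgeR p under 0.05 (4.01% of all genes). Cd68, a glycoprotein of macrophage lysosomes, stood at 93.9, 101 and 99.2 CPM in control and 168, 162 and 118 CPM in ES (log2 fold change 0.60 ± 0.12). ES 3 was again the lowest of the ES libraries and still above control. Gpnmb, a glycoprotein of phagocytic cells, had a log2 fold change of 0.54 ± 0.13 and Slc15a4, a transporter of histidine and peptides, one of 0.43 ± 0.10. By edgeR their adjusted p ran from 0.116 to 0.161. DESeq2 called 4 of the 24 higher, these 3 among them (0.627% of all).

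Of the other 14 pump subunits tested, 4 were higher at an unadjusted edgeR p under 0.05 (4.01% of all) and 0 were lower (5.94% of all). DESeq2 called 2 higher (0.627% of all), Tcirg1 and Atp6v1b2. Tcirg1, which encodes the a3 subunit known from osteoclasts, stood at 61.0, 65.4 and 64.6 CPM in control and 91.8, 80.6 and 78.1 CPM in ES (log2 fold change 0.39 ± 0.08, edgeR adjusted p = 0.105). Atp6v1b2 had a log2 fold change of 0.31 ± 0.09 and Atp6v1e1 one of 0.21 ± 0.07. These 3 were named for their low p, so their values cannot be set against those of the 5 pump genes described above. Over all 14 the log2 fold changes ran from −0.00095 to 0.39, with a median of 0.11. The median of the 5 was 0.06, and the difference was not tested.

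Of the other 29 acid hydrolases and activators, 2 were higher at an unadjusted edgeR p under 0.05 (4.01% of all). Lyz2, the lysozyme of macrophages and neutrophils, stood at 1433, 1222 and 1571 CPM in control and 1954, 2476 and 1744 CPM in ES (log2 fold change 0.55 ± 0.14, edgeR adjusted p = 0.221), and lysozyme genes are alike enough to share reads. Gm2a, the activator of ganglioside breakdown, and Dnase2, the acid nuclease, had log2 fold changes of 0.18 ± 0.08 and 0.19 ± 0.09. Of 9 other lysosomal proteases, 1 was higher by the same measure (4.01% of all). The 3 of lowest p were Ifi30, a thiol reductase (0.18 ± 0.07), Ggh, a folate hydrolase (0.24 ± 0.13), and Napsa, an aspartic protease (0.78 ± 0.57). Napsa was highest in ES 2, at 22.0 CPM against 4.26 to 12.7 CPM in the other 5 libraries, and its log2 fold change was 0.25 without ES 2 and 1.31 without control 3.

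Of 11 sorting receptors and enzymes that tag hydrolases for the lysosome, 1 was higher by that measure (4.01% of all). Nagpa, which uncovers the mannose 6-phosphate tag, had a log2 fold change of 0.25 ± 0.11, and Lrp1, a scavenger receptor, one of 0.20 ± 0.10 (0.08 without ES 2). M6pr, a receptor of the tag, stood at 24.2, 5.83 and 3.02 CPM in control and 2.37, 5.15 and 2.82 CPM in ES, so that its log2 fold change of −1.68 ± 0.93 rested on control 1 (−0.35 without it).

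Of 5 transcription factors of lysosomal genes, Tfeb stood at 25.3, 30.1 and 30.1 CPM in control and 35.2, 36.2 and 30.1 CPM in ES. ES 3 met the upper control libraries, and the log2 fold change was 0.25 ± 0.11 (edgeR adjusted p = 0.498). Tfe3 was at −0.15 ± 0.11, Mitf at −0.06 ± 0.17, Tfec at 0.36 ± 0.27, and Zkscan3, described as a repressor of these genes, at 0.03 ± 0.15. Of the cystatins, which inhibit cysteine cathepsins, Cstb was at 0.23 ± 0.10, Cst3, the secreted cystatin C, at 0.14 ± 0.14, Cst7 at 0.35 ± 0.40 and Cst6 at 0.15 ± 0.40 on the log2 fold change scale, and Csta had 0 counts in every library. Adjusted p by edgeR ran from 0.481 to 0.967 over these 9 tested factors and inhibitors.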

How the data were processed

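Per gene and library, the authors deposited whole-number read counts and FPKM values, and they also deposited FPKM group means. Each FPKM value equals the count divided by gene length and by 1 constant per library, and the group means equal the means of their columns and served only as this check. The build in the submitters' processing notes is rn7, but clone names in the tables resemble an earlier rat build. Coordinates are therefore printed as the tables state them, with the build not settled. Neither an aligner nor a counting tool is named, and strand handling is not given in the sources used here.

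Counts of 14962319 to 17119144 per library were tested with edgeR 4.0.16 in R 4.3.3 (quasi-likelihood, robust, two-sided) after filterByExpr and TMM normalization, adjusted by Benjamini-Hochberg over all 14828 genes kept. The standard error is the absolute log2 fold change over the square root of the F statistic. Loci without a gene name (830, with 0.723% to 0.84% of counts) stayed in the fit. Counts of libraries of a group differed by more than counting noise (chi-square per gene 11.1 to 19.3), so none was treated as a copy of another. This does not show that they are separate animals. The alternatives were DESeq2 1.42.0, limma-voom and limma 3.58.1 on log2(FPKM + 1) or log2(FPKM + 0.1), other scalings and dispersions, no filter, a replicate block and the omission of each library. The fits were tested on simulated data.

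The 35 genes and the other lists were chosen with earlier results of these data known. Values per library are given for those of the 35 with an unadjusted edgeR p under 0.05 or no overlap between the groups, the 8 of highest mean FPKM, and both d subunits of the pump. From each further list the 3 genes of lowest p are named, and all transcription factors and cystatins. Of the 104 further genes, 99 were matched by symbol or by a synonym in RefSeq.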

Additional observations from a re-analysis of the deposited data

How the results depend on the processing

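Over the 16 alternatives, the log2 fold changes of the 18 lysosomal genes with values per library were recomputed 288 times; 277 kept their direction and side of the threshold, 9 passed it (6 with DESeq2, 3 without a filter on low counts) and 2 turned, both for Atp6v0d2, at −0.14 without control 1 and −0.0026 without ES 1 (0.49 at most, without control 2), a gene of 47 to 136 counts a library. None of the 18 was called by edgeR at the outset, so no call could be lost. Leaving out a library moved the log2 fold change by over 1.5 times in 20 of the 35 and turned it in 9 of these, Arsb, Atp6v0d2, Atp6v1h, Ctsf, Ctsk, Gaa, Glb1, Man2b1 and Scarb2. The median of the 35 ran from 0.08 to 0.15. The number of the 35 called higher was 6 with DESeq2 and 3 without the filter, and 0 under all other alternatives. The number called lower was 0 under all. Of the further lysosomal genes, 7 were called higher with DESeq2, 2 without the filter, and 0 to 2 when a library was left out, with the 2 without ES 3. Over all genes, the 25 calls became 301 with DESeq2, 132 without the filter, 39 with library totals only, 2 with limma-voom, 2 with non-robust dispersions, 3 with limma on log2(FPKM + 1) and 2 on log2(FPKM + 0.1), and 2 to 152 when a library was left out (2 without control 3, 5 without control 1, 41 without ES 3, 152 without control 2). The replicate block gave 11 calls, 0 of them among the 35. Deviations of samples of the same number from their group means had Pearson's r = −0.125, −0.13 and −0.0368. With 3 samples a group, these values cannot settle whether the numbers mark pairs. A fit without loci that have no gene name was chosen after seeing the data and gave 25. The causes of these shifts were not tested. Standard errors of the 35 log2 fold changes, which limit what 3 libraries a group can show, ran from 0.0659 (Atp6v0d1) to 0.352 (Atp6v0d2).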

Other observations

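Values in this paragraph were chosen after they were seen. Mcoln3, an endolysosomal cation channel on none of the lists, was 1 of the 5 genes called higher by edgeR, with 11.6, 11.5 and 11.6 CPM in control and 26.3, 23.1 and 25.4 CPM in ES (log2 fold change 1.10 ± 0.11, adjusted p = 0.0064). The ratio of Ctss to Ctsk within a library was 0.968, 1.31 and 0.976 in control and 1.40, 1.40 and 1.49 in ES, so it was higher in each ES library. The ratio of Ctsb to its inhibitor gene Cst3 was 1.92, 1.68 and 1.88 in control and 2.63, 1.64 and 1.85 in ES, and only ES 1 lay above the control libraries.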
